A study of Glycine max with 12 samples.

Results

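Long non-coding RNAs (lncRNAs) were compared between young pods of the low-linolenic acid soybean mutant MT72 and of the variety JN18 at 40 d after flowering. The comparison holds 6 of the 12 libraries of the series, which are the MT72 libraries MT_4, MT_5 and MT_6 (group MT_40) and the JN18 libraries JN_4, JN_5 and JN_6 (group JN_40). Of 11072 lncRNA transcripts in the deposited table, 7946 lay above 0.1 FPKM in at least 3 of these 6 libraries and were tested, and 3126 did not reach that level. FPKM, which divides the fragments of a transcript by its length and by the mapped fragments of the library, allows transcripts of different length and libraries of different depth to be set on a common scale. MT72 is a line of the fourth generation after treatment of soybean with the mutagen EMS, and JN18 is a high-oil variety that served as wild type. The sources used here do not say whether JN18 is the parent of MT72, so an effect of the mutagenesis and a difference of background between the varieties cannot be told apart. Whole pods of field-grown plants were taken, so fewer cells of a type and less RNA per cell cannot be told apart in any value below. The labels do not say that the libraries of a group came from separate plants, while the study calls them biological replicates. P-values set a difference against the spread between libraries, which the fits below take from all 12 libraries unless stated.

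A lncRNA is a transcript of more than 200 bases without a recognised open reading frame, and many act close to where they are made. Intergenic lncRNAs have their own locus, intronic ones lie wholly within an intron of a host gene, antisense ones overlap a host on the opposite strand, and sense ones share a splice junction or exon sequence with their host. In plants, antisense and intergenic transcripts are known as possible regulators of neighbouring genes and as decoys of miRNAs. Linolenic acid is made from linoleic acid by the FAD3 desaturases in the endoplasmic reticulum, and it is the fatty acid that makes soybean oil prone to oxidation.

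Depth was similar in both groups, at 10.8 to 11.6 Gb (gigabases) of aligned sequence in MT_40 libraries and 10.5 to 12.3 Gb in JN_40 libraries. A transcript of median length at 1 FPKM had 23.8 to 27.7 estimated reads in these libraries, so that a value of 0.1 FPKM rests on few reads. Library JN_6 lay closer to the MT_40 libraries than JN_4 and JN_5 did. Across the 7946 tested lncRNAs, which are not independent points, its Pearson r was 0.748, 0.748 and 0.706 with MT_4, MT_5 and MT_6, and 0.673 and 0.706 with JN_4 and JN_5. The other JN_40 libraries had an r of 0.634 to 0.696 with MT_40 libraries. JN_4 and JN_5 had an r of 0.698 with each other, between the values of JN_6 with them. MT_40 libraries had an r of 0.735 to 0.787 with each other. In the 30 d groups, whose libraries enter the fit through the estimate of the spread, JN_9 listed 2847 transcripts at 0, more than any of the other libraries. Results were therefore also computed without each library and without JN_6 and JN_9 together. An MT_40 library listed on average 8841 ± 86.6 lncRNAs above 0 FPKM and a JN_40 library 8760 ± 74.9 (SD, n = 3 each), a difference of 81.3 that did not exceed the spread between libraries (two-sided exact permutation test, p = 0.3, with 0.1 the smallest p possible for 3 against 3).

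Most lncRNAs were at about the same level in MT_40 and JN_40, and a small set of mostly intergenic lncRNAs was far higher in the mutant. The median log2 fold change of MT_40 over JN_40, on the scale of log2 of FPKM plus 0.1, was -0.02 with quartiles at -0.41 and 0.39, and the median standard error (SE) was 0.55. At an adjusted p of at most 0.05 (limma, Benjamini-Hochberg adjustment over 7946 lncRNAs), 14 lncRNAs changed, which is 0.176% of those tested. Of these, 10 were higher in MT_40 (0.126%) and 4 were lower (0.0503%). The study names weaker thresholds, which ask for a log2 fold change beyond 1 in size and for p up to 0.05 without adjustment. Under these 486 lncRNAs passed (6.12%), with 280 higher in MT_40 (3.52%) and 206 lower (2.59%). The limit on the unadjusted p alone was met by 567 lncRNAs. All of these counts come from the limma fit on FPKM. The study applied its thresholds with edgeR, a count test that was not run here. It reports fewer lncRNAs for this comparison, so the counts given here are not those of its test. The cause of the difference was not tested. Leaving out MT_4, MT_5 or MT_6 gave 8, 7 and 7 calls at the adjusted p, and leaving out JN_9 gave 28. Without JN_6 there were 17 calls, and without JN_6 and JN_9 together 43 calls at the adjusted p and 812 at the study's thresholds.

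**Figure D1:**
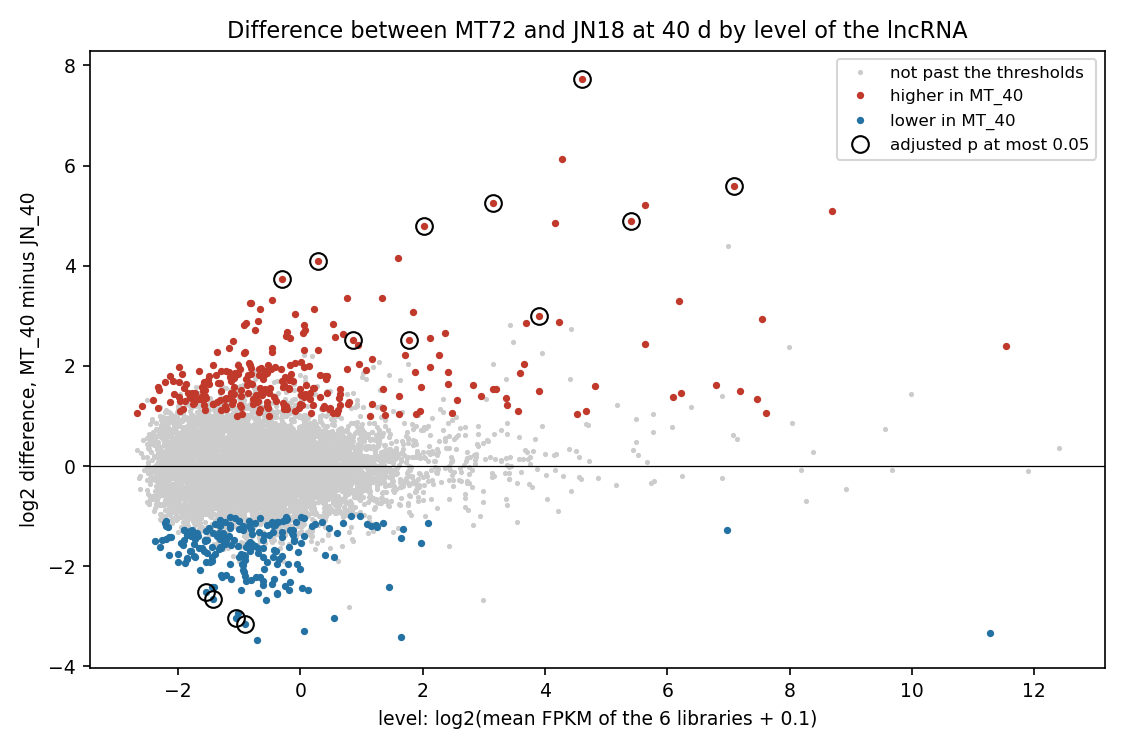
Each point is 1 of the 7946 tested lncRNAs, with log2 of its mean FPKM over the 6 libraries plus 0.1 on the x axis and its log2 fold change of MT_40 over JN_40 on the y axis. Red and blue points passed the study's thresholds as higher (280) or lower (206) in MT_40, grey points did not, and open circles mark the 14 called at the adjusted p, of which the 10 higher ones reach farther up in abundance than the 4 lower ones.

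MSTRG.16468.1 was the lncRNA with the smallest adjusted p and the largest change. This intergenic transcript of 516 bases lies on chromosome 15 at 6430810 to 6431325 in the coordinates of the table, whose genome build none of the sources used here gives. It had 33.5, 60.0 and 51.0 FPKM in MT_4, MT_5 and MT_6, against 0.142, 0.343 and 0 FPKM in JN_4, JN_5 and JN_6. Every MT_40 library lay far above every JN_40 library, and in reads the groups stood at 1339 to 2230 estimated reads per MT_40 library against 0 to 13.9 per JN_40 library. The log2 fold change was 7.73 (SE 0.53) with an adjusted p of 1.42e-05 (limma). The nearest host genes in the table were LOC100791720 at 64.4 kb and LOC100526907 at 173.7 kb. At 30 d, in libraries that the 40 d comparison did not use for its means, the values were 29.3, 61.6 and 70.3 FPKM in MT_30 against 0.112, 0.0579 and 0.272 FPKM in JN_30.

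A further 4 of the higher lncRNAs were abundant in MT_40 pods. The intergenic MSTRG.45584.1 (chromosome 7, 14342193 to 14342850) had 169, 365 and 261 FPKM in MT_40 libraries, against 2.41, 4.07 and 13.6 FPKM in JN_40 libraries, a log2 fold change of 5.59 (SE 0.71, adjusted p = 0.00528, limma). It was the most abundant of the 14, and its highest JN_40 library was JN_6. The intergenic MSTRG.50137.1 (chromosome 8, 43792773 to 43793606, minus strand) had 73.1, 95.9 and 74.2 FPKM in MT_40 libraries, against 2.41, 0.789 and 8.77 FPKM in JN_40 libraries (log2 fold change 4.90, SE 0.76, adjusted p = 0.0186, limma). JN_6 was again the highest JN_40 library, and the groups did not overlap. The intergenic MSTRG.40968.1 (chromosome 5, 39714673 to 39717955, minus strand) is the longest of the 14 at 3283 bases and had 26.1, 27.1 and 25.7 FPKM in MT_40 libraries, against 2.18, 3.57 and 4.28 FPKM in JN_40 libraries (log2 fold change 2.99, SE 0.50, adjusted p = 0.0327, limma). Its MT_40 libraries agreed closely, at 26.3 ± 0.712 FPKM against 3.34 ± 1.07 FPKM in JN_40 (SD, n = 3 each). MSTRG.14432.1 (chromosome 14, 8290048 to 8290855) lies in an intron of LOC100806012 and had 13.5, 20.1 and 17.3 FPKM in MT_40 libraries, against 0.671, 0.784 and 0.0293 FPKM in JN_40 libraries. Its log2 fold change was 5.25 (SE 0.64, adjusted p = 0.00484, limma), and here JN_6 was the lowest of the 6 libraries.

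The other 5 higher lncRNAs had between 1 and 10 FPKM in MT_40. MSTRG.33279.1 (chromosome 20, 42576534 to 42576781, intergenic) had 6.17, 8.74 and 7.19 FPKM in MT_40 libraries, against 0, 1.76 and 0 FPKM in JN_40 libraries (log2 fold change 4.80, SE 0.84, adjusted p = 0.0427, limma). Only JN_5 of the JN_40 libraries listed it above 0. MSTRG.36999.1 (chromosome 4, 5634543 to 5635041, plus strand, intergenic) had 7.23, 3.72 and 6.37 FPKM in MT_40 libraries, against 0.760, 0.919 and 1.0 FPKM in JN_40 libraries, a log2 fold change of 2.52 (SE 0.44, adjusted p = 0.0427, limma). MSTRG.9226.1 (chromosome 12, 32775300 to 32775514, intergenic) had 2.79, 2.79 and 3.43 FPKM in MT_40 libraries, against 0.346, 0.437 and 0.561 FPKM in JN_40 libraries, a log2 fold change of 2.51 (SE 0.40, adjusted p = 0.0224, limma). The JN_40 libraries of both were close together and every MT_40 library lay above them. MSTRG.39554.1 (chromosome 5, 8369252 to 8369462, intergenic) had 2.32, 1.80 and 2.52 FPKM in MT_40 libraries, against 0.139, 0 and 0 FPKM in JN_40 libraries (log2 fold change 4.10, SE 0.44, adjusted p = 0.00159, limma). MSTRG.608.1, a transcript of 2 exons antisense to LOC106794557 (chromosome 1, 8756660 to 8762394, minus strand), had 1.78, 1.03 and 1.44 FPKM in MT_40 libraries, against 0, 0 and 0.0351 FPKM in JN_40 libraries (log2 fold change 3.75, SE 0.50, adjusted p = 0.00649, limma). It was the spliced member of the 10 and the one near 0 in MT72 at the earlier stage, with 0, 0.0300 and 0 FPKM in MT_30 against 0, 0.196 and 0 FPKM in JN_30. MSTRG.608.1 passed the filter through the MT_40 libraries alone. Added up, the 10 higher lncRNAs came to 335, 586 and 451 FPKM in MT_40 libraries and to 9.05, 12.7 and 28.2 FPKM in JN_40 libraries, where the highest sum was that of JN_6. The 10 were chosen as higher in these same libraries, so the gap between the sums follows from the choice. MSTRG.45584.1 alone gave 169, 365 and 261 FPKM of the MT_40 sums.

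The 4 lncRNAs lower in MT_40 were all of low abundance and were listed at 0 in each MT_40 library, so that no fold change is given. They passed the filter through the JN_40 libraries alone. The filter thus took them by their higher group, and their adjusted p-values are not independent of that choice. MSTRG.21850.1, antisense to HOP1 (chromosome 17, 11112875 to 11113292, 2 exons), was listed at 0 in the 3 MT_40 libraries, against 0.566, 1.22 and 0.521 FPKM in JN_40 libraries (adjusted p = 0.00649, limma). MSTRG.42751.1, antisense to LOC100170707 (chromosome 6, 12480291 to 12480711, 2 exons), was listed at 0 in the 3 MT_40 libraries, against 0.467, 0.710 and 1.43 FPKM in JN_40 libraries (adjusted p = 0.0148, limma). In reads, both antisense transcripts rest on 7.87 to 21.8 estimated reads in a JN_40 library. The intergenic MSTRG.915.1 (chromosome 1, 29179228 to 29179450) had no signal in MT_40 libraries, against 0.406, 0.372 and 0.679 FPKM in JN_40 libraries (adjusted p = 0.0148, limma). MSTRG.30518.1, in an intron of LOC100775211 (chromosome 2, 40118031 to 40118251), had none in MT_40 libraries either, against 0.369, 0.665 and 0.604 FPKM in JN_40 libraries (adjusted p = 0.0427, limma), with 6.68 to 11.5 estimated reads in a JN_40 library. In the fit of the 6 compared libraries alone none of the 4 kept the call, with an adjusted p (limma) of 0.0637 for MSTRG.21850.1 and MSTRG.42751.1, 0.0970 for MSTRG.915.1 and 0.0776 for MSTRG.30518.1. None kept it with a replicate block on 12 libraries either (adjusted p of 0.0706 for MSTRG.21850.1, 0.0890 for MSTRG.42751.1, 0.142 for MSTRG.915.1 and 0.160 for MSTRG.30518.1, limma). MSTRG.21850.1 and MSTRG.915.1 are also at 0 in all 30 d libraries, which enter the spread of the fit on 12. These depths do not separate absence in MT_40 from a low level there.

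**Figure D2:**
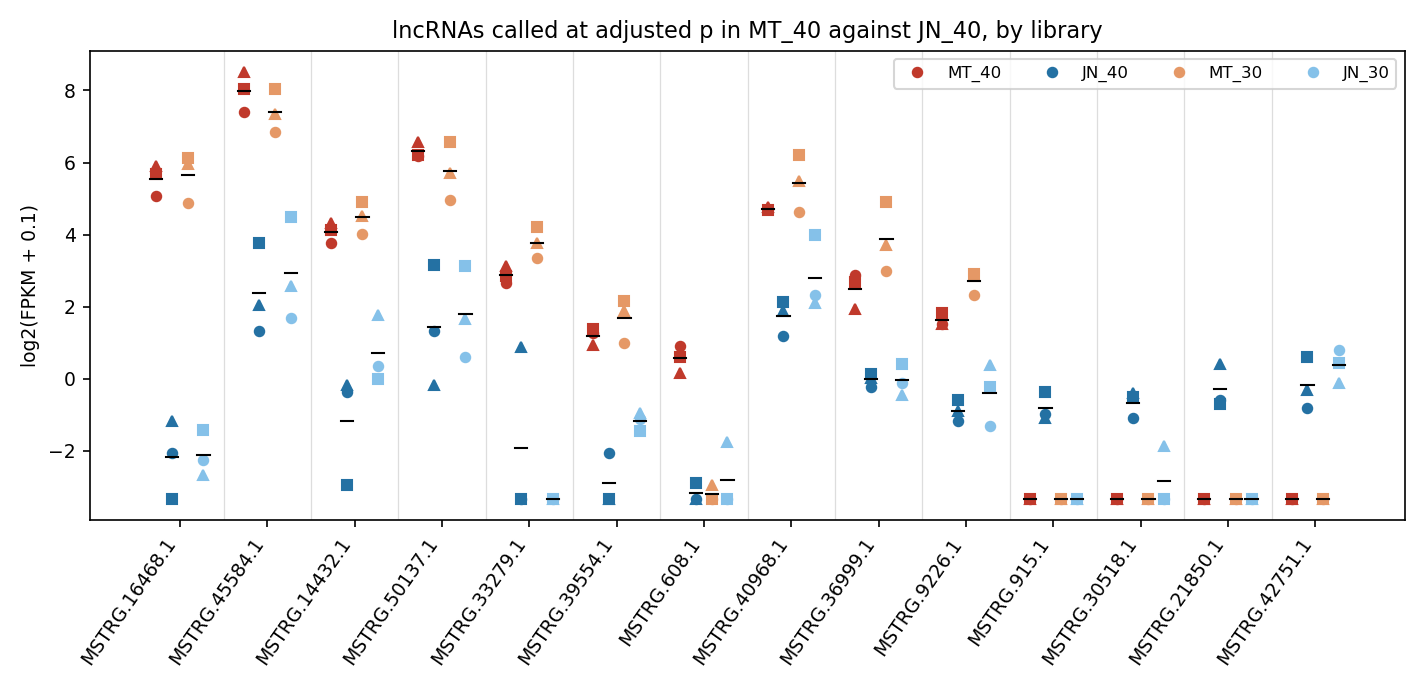
The 14 lncRNAs called at the adjusted p stand in columns along the x axis with log2 of FPKM plus 0.1 on the y axis, where points on the bottom level are listed at 0 FPKM. Each column holds the groups MT_40, JN_40, MT_30 and JN_30 from left to right, where marker shapes stand for the 3 libraries of a group and black lines for their means. In each column the MT_40 and JN_40 points do not overlap, and for MSTRG.915.1 and MSTRG.21850.1 all 30 d points lie at 0 FPKM.

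Of the 14 calls, 6 were kept when any 1 of the 6 libraries or JN_9 was left out, which were MSTRG.16468.1, MSTRG.39554.1, MSTRG.14432.1, MSTRG.45584.1, MSTRG.608.1 and MSTRG.21850.1. MSTRG.30518.1, MSTRG.36999.1 and MSTRG.40968.1 lost the call without each of MT_4, MT_5, MT_6, JN_4, JN_5 and JN_6, at an adjusted p (limma) of 0.157, 0.202, 0.206, 0.0864, 0.160 and 0.0840 for the first, 0.189, 0.0781, 0.238, 0.176, 0.160 and 0.0765 for the second and 0.130, 0.152, 0.154, 0.170, 0.108 and 0.0533 for MSTRG.40968.1. MSTRG.33279.1 lost it without MT_4, MT_5, MT_6, JN_4 and JN_6 (0.139, 0.221, 0.206, 0.176 and 0.111). MSTRG.50137.1 and MSTRG.9226.1 lost it without MT_4, MT_5, MT_6, JN_4 and JN_5, at 0.0792, 0.0980, 0.0863, 0.0983 and 0.0721 for MSTRG.50137.1 and at 0.0888, 0.0980, 0.154, 0.126 and 0.0864 for MSTRG.9226.1. MSTRG.915.1 and MSTRG.42751.1 lost it without MT_4, MT_5 and MT_6 (0.0683, 0.0781 and 0.0863 for MSTRG.915.1, and 0.0683, 0.0781 and 0.0838 for MSTRG.42751.1). The direction of each stayed the same in these fits. In the fit of the 6 compared libraries the calls lost were those of the 4 lower lncRNAs and that of MSTRG.33279.1 (adjusted p = 0.179, limma). Leaving out the 30 d libraries MT_7, MT_8, MT_9, JN_7 and JN_8 in turn kept 12, 9, 12, 11 and 12 of the 14 calls.

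The pods at 30 d gave 6 further libraries in which the 14 lncRNAs could be looked up. They share no library with the 40 d groups, though the fit takes its spread from all 12. Of the 14, 11 differed in the same direction at 30 d and 10 of these passed the adjusted p there, where 47 of the 7946 lncRNAs did (0.591%). The largest of these 30 d differences were those of MSTRG.16468.1 (log2 fold change 7.76) and MSTRG.33279.1, which had 10.0, 13.7 and 18.4 FPKM in MT_30 libraries against 0 FPKM in each JN_30 library. MSTRG.36999.1 had 7.87, 13.0 and 29.9 FPKM in MT_30 libraries against 0.825, 0.638 and 1.24 FPKM in JN_30 libraries, a log2 fold change of 3.91 (adjusted p = 0.00197, limma). MSTRG.42751.1 was the lower lncRNA that was also called at 30 d (adjusted p = 0.00363, limma), again with 0 FPKM in every MT72 library. MSTRG.21850.1 and MSTRG.915.1 were listed at 0 in all 6 libraries of 30 d.

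Over the larger set at the study's thresholds, 201 of the 280 higher lncRNAs (71.8%) and 135 of the 206 lower ones (65.5%) differed in the same direction at 30 d, while 4524 of all 7946 tested lncRNAs (56.9%) did. At 30 d, 927 lncRNAs passed these thresholds (11.7%). Among them were 86 of the 280 higher lncRNAs in the same direction (30.7%) and 6 in the opposite one, and 23 of the 206 lower lncRNAs in the same direction (11.2%) and 8 in the opposite one. Of all tested lncRNAs 626 (7.88%) passed at 30 d in the direction of their 40 d difference. A different genotype difference at the 2 stages was called for 2 lncRNAs at an adjusted p of at most 0.05 (0.0252%), and both have their values in the closing section.

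**Figure D3:**
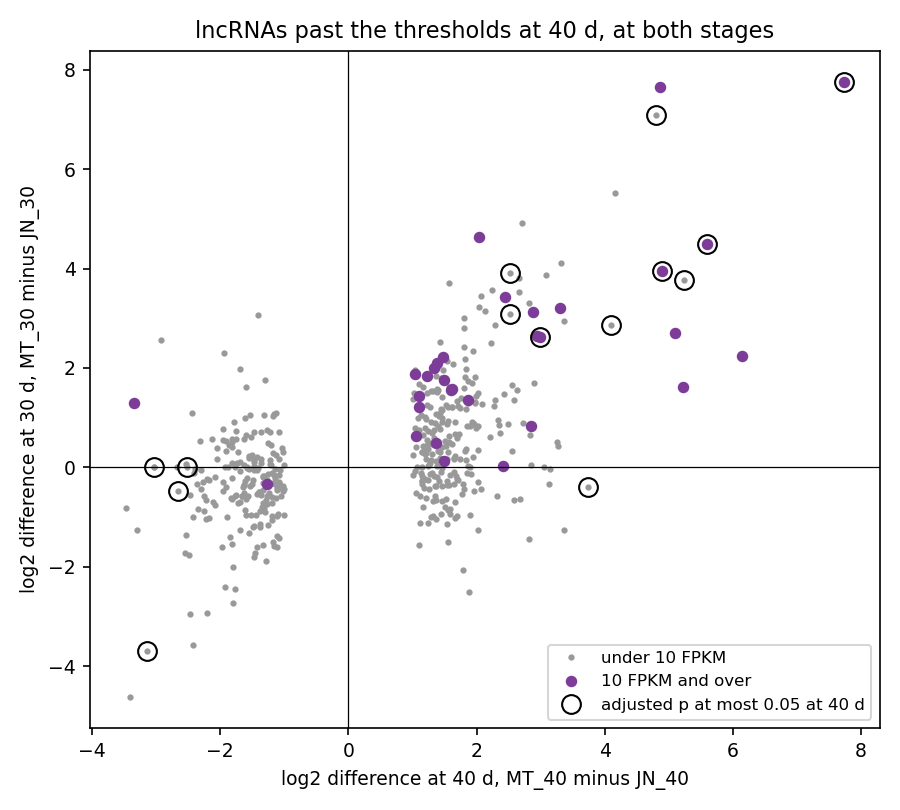
Each point is 1 of the 486 lncRNAs past the study's thresholds at 40 d, with the log2 fold change of MT_40 over JN_40 on the x axis and that of MT_30 over JN_30 on the y axis. The higher lncRNAs spread mostly above 0 on the y axis (201 of 280) and the lower ones mostly below it (135 of 206), with medians of 0.67 and -0.31 at 30 d.

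By position class, intergenic lncRNAs held most of the higher calls. Of 2633 tested intergenic lncRNAs, 172 passed the study's thresholds as higher (6.53%) and 67 as lower (2.54%). Of 4205 intronic lncRNAs, 67 were higher (1.59%) and 107 lower (2.54%), with a median log2 fold change of -0.08 against 0.06 for the intergenic ones. The antisense class was small and had calls both ways, with 14 of 181 higher (7.73%) and 12 lower (6.63%). Among sense lncRNAs that share a junction with the host, 20 of 802 were higher and 14 lower, and among those that overlap host exons 7 of 125 were higher and 6 lower. Higher and lower lncRNAs were built much like the rest, with a median length of 346.5 bases for the higher, 318 bases for the lower and 383 bases for all tested lncRNAs, and a single exon in 77.5%, 78.6% and 79.6% of them. A host gene was named for 108 of the 280 higher (38.6%) and 139 of the 206 lower lncRNAs (67.5%), beside 5313 of all 7946 tested (66.9%). These are the lncRNAs outside the intergenic class, so these shares restate the class counts and are no further trait. Of the 98 hosts of higher lncRNAs that matched a RefSeq gene of Glycine_max_v4.0, 84 were protein-coding, and of 128 matched hosts of lower lncRNAs 120 were. The share over all matched hosts was not counted, so nothing is read from these counts.

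Abundant lncRNAs were more often higher than lower in MT_40. Among 115 lncRNAs that averaged 10 FPKM or more over the 6 libraries, 29 were higher (25.2%) and 2 lower (1.74%). Among 1718 lncRNAs of 1 to 10 FPKM, 69 were higher (4.02%) and 22 lower (1.28%), and under 0.5 FPKM the numbers were 109 higher and 118 lower of 3741. Since the mean over the 6 libraries includes the higher group, abundance was also taken from the 30 d libraries, which include MT_30. Of 102 lncRNAs with a 30 d mean of at least 10 FPKM, 32 were higher at 40 d (31.4%) and 2 lower (1.96%), with a median log2 fold change of 0.73 against -0.03 for the remaining 7844. By the mean of the JN_30 libraries alone, which holds no MT72 library, 18 of 88 lncRNAs of at least 10 FPKM were higher at 40 d (20.5%) and 2 lower (2.27%), with a median log2 fold change of 0.30. The summed FPKM of all lncRNAs was 28826 to 35066 in MT_40 libraries and 23714 to 31244 in JN_40 libraries, and its part in this result was not tested. Without JN_4, the lowest JN_40 library of 24 of the 29, the number of higher lncRNAs of at least 10 FPKM was 15.

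**Figure D4:**
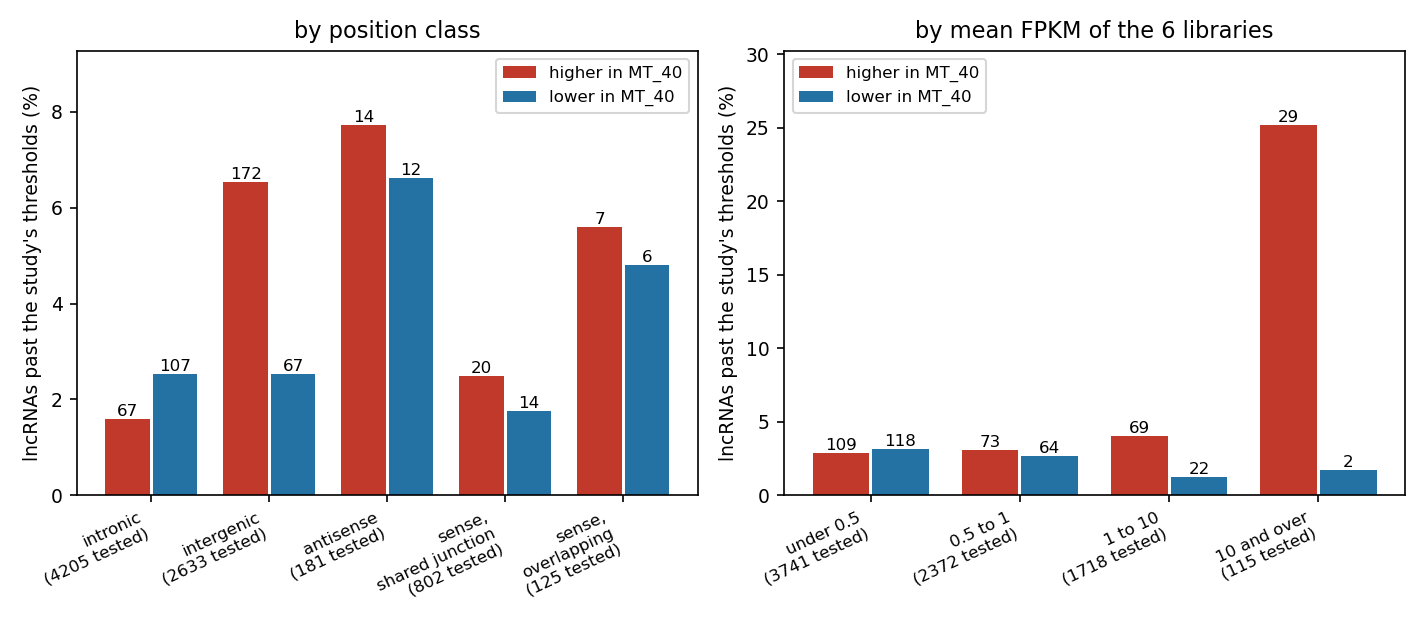
Bars give the percentage of tested lncRNAs that passed the study's thresholds as higher or as lower in MT_40, by position class and by mean FPKM over the 6 libraries, with the number of lncRNAs written on each bar. Intergenic lncRNAs (6.53% higher, 2.54% lower) and lncRNAs of at least 10 FPKM (25.2% higher, 1.74% lower) show the widest gaps between the directions.

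The 29 abundant higher lncRNAs had a median log2 fold change of 2.04. They comprised 21 intergenic transcripts, beside 73 intergenic ones among all 115 of this level, and 20 with a single exon. In 26 the groups did not overlap, which their choice by p and fold change on the same libraries favours. Of all 115, MT_40 lay above JN_40 without overlap in 43 and below in 8. All 29 had a positive log2 fold change at 30 d, and 20 of them passed the study's thresholds there. Over all 280 higher lncRNAs, 71.8% had the same direction at 30 d and 30.7% also passed there. Over all tested lncRNAs the shares were 56.9% and 7.88%. The shares of the other lncRNAs of at least 10 FPKM at 30 d were not computed. The following examples beyond the 14 calls were chosen after their values were seen. MSTRG.28225.1 (chromosome 19, 48942167 to 48942725, intergenic) had 115, 135 and 140.2 FPKM in MT_40 libraries, against 5.47, 13.4 and 30.3 FPKM in JN_40 libraries (log2 fold change 3.30, SE 0.65, adjusted p = 0.0833, limma). MSTRG.51021.1 (chromosome 9, 3945537 to 3946523) had 89.0, 96.1 and 62.3 FPKM in MT_40 libraries, against 7.96, 17.7 and 23.4 FPKM in JN_40 libraries (log2 fold change 2.44, adjusted p = 0.0833, limma). Both passed at 30 d, with adjusted p-values (limma) of 0.0465 and 0.00610. MSTRG.4566.1 (chromosome 10, 46167692 to 46168258) had 349, 319 and 305 FPKM in MT_40 libraries, against 20.8, 36.7 and 97.1 FPKM in JN_40 libraries, and its log2 fold change of 2.94 had an adjusted p of 0.300 (limma). In each of these the MT_40 libraries stood close together and JN_4 was the lowest and JN_6 the highest JN_40 library.

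The place of JN_6 was looked at over all calls. Over the higher lncRNAs with a single highest JN_40 library, JN_6 was that library in 136 of 273 (49.8%), while over all tested lncRNAs it was so in 30.3%. Over the lower lncRNAs JN_6 was the lowest JN_40 library in 99 of 206 (48.1%), against 35.9% over all tested. JN_6 therefore lay nearest to MT_40 most often in both directions, and the number past the study's thresholds without it was 614. Its part in the single results was measured only by leaving it out.

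The groups did not overlap for 1178 of the tested lncRNAs (14.8%), with all MT_40 libraries above all JN_40 libraries in 561 and below in 617. Of the lncRNAs past the study's thresholds, 222 of the higher and 163 of the lower were of this kind. Those with at least 1 FPKM on average in the higher group numbered 113 higher and 49 lower, and the 10 with the highest and the 10 with the lowest log2 fold change among them were looked at singly. Of the 10 higher ones, 6 belong to the 14 calls described above, and MSTRG.49939.1, MSTRG.36128.1, MSTRG.28811.1 and MSTRG.6672.5 made up the rest. MSTRG.49939.1 (chromosome 8, 42028802 to 42031565, minus strand, intergenic with 2 exons) had 34.1, 31.8 and 36.6 FPKM in MT_40 libraries, against 0.390, 1.01 and 2.89 FPKM in JN_40 libraries, a log2 fold change of 4.86 (SE 1.26, adjusted p = 0.285, limma). Its spread was wide at 30 d, with 19.8, 1019.7 and 79.9 FPKM in MT_30 libraries against 1.71, 1.02 and 0 FPKM in JN_30 libraries (adjusted p = 0.0150, limma), and the same fit uses that spread at 40 d. In the fit of the 6 libraries of 40 d its adjusted p was 0.0200 (limma). MSTRG.36128.1 (chromosome 3, 44170885 to 44171235, intergenic) had 4.79, 8.23 and 3.29 FPKM in MT_40 libraries, against 0.10, 0 and 1.12 FPKM in JN_40 libraries (log2 fold change 4.15, SE 0.86, adjusted p = 0.101, limma). MSTRG.28811.1, in an intron of LOC102660211 (chromosome 2, 3612029 to 3612610), had 417, 711 and 853 FPKM in MT_40 libraries, against 0, 204 and 305 FPKM in JN_40 libraries. Its log2 fold change of 5.10 (SE 2.22, adjusted p = 0.649, limma) rested on JN_4, without which it was 1.34. It did not pass the study's thresholds without JN_4, MT_4, MT_5 or MT_6, at an unadjusted p (limma) of 0.181, 0.0581, 0.0757 and 0.0818.

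The 10 lowest lncRNAs of this rule were MSTRG.41534.1, MSTRG.45099.2, MSTRG.4152.1, MSTRG.1702.1, MSTRG.3409.1, MSTRG.4277.1, MSTRG.45039.1, MSTRG.46243.1, MSTRG.47021.1 and MSTRG.22695.1. MSTRG.41534.1 apart, they were scarce, with means of 1.02 to 4.88 FPKM in JN_40 libraries. MSTRG.45039.1, which overlaps exons of LOC102665361 (chromosome 7), had 0.192, 0.267 and 0.235 FPKM in MT_40 libraries, against 1.41, 2.14 and 1.74 FPKM in JN_40 libraries (log2 fold change -2.48, SE 0.56, adjusted p = 0.182, limma). Both groups were tight, and at 30 d the difference passed the adjusted p (log2 fold change -2.95, adjusted p = 0.0337, limma), while the fit of the 6 libraries of 40 d gave an adjusted p of 0.0425 (limma). MSTRG.4152.1, in an intron of LOC100809659 (chromosome 10), had 0, 0.122 and 0.0410 FPKM in MT_40 libraries, against 3.03, 2.13 and 0.323 FPKM in JN_40 libraries, where JN_6 was nearest to MT_40 (log2 fold change -3.30). MSTRG.46243.1 (chromosome 7, intergenic) had 0.255, 0.327 and 0.569 FPKM in MT_40 libraries, against 1.38, 12.5 and 0.735 FPKM in JN_40 libraries. JN_5 stood far above the others, and the log2 fold change of -2.42 was -1.25 without it. MSTRG.22695.1 (chromosome 17, intergenic) had 0.0407, 0.313 and 0.0398 FPKM in MT_40 libraries, against 0.794, 2.14 and 0.441 FPKM in JN_40 libraries, and lost the unadjusted threshold without MT_4, MT_6 or JN_5 (p of 0.0609, 0.0606 and 0.0893, limma).

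Where several lncRNA transcripts were assembled at one locus, their reads overlap and the split between them is an estimate. Of 225 assembled genes with at least 2 tested transcripts, 29 had a transcript past the study's thresholds, and 4 had transcripts called in both directions. The most abundant of these was MSTRG.41534, antisense to LOC100789918 on chromosome 6 (2196929 to 2203702, minus strand), whose MSTRG.41534.2 had the highest mean FPKM of all lncRNAs over the 6 libraries. MSTRG.41534.1 had 526, 463 and 349.5 FPKM in MT_40 libraries, against 3902, 5455 and 4161 FPKM in JN_40 libraries (log2 fold change -3.34, SE 1.02, adjusted p = 0.438, limma). MSTRG.41534.3 had the opposite pattern, with 5518, 5215 and 4128 FPKM in MT_40 libraries, against 598, 1368 and 973 FPKM in JN_40 libraries (log2 fold change 2.41, SE 1.05, adjusted p = 0.649, limma). MSTRG.41534.2, which had no call, had 6533, 6696 and 4989 FPKM in MT_40 libraries, against 4391, 5509 and 4314 FPKM in JN_40 libraries. The sums of the transcripts overlapped between the groups, at 12576, 12373 and 9466 FPKM in MT_40 libraries and 8890, 12331 and 9447 FPKM in JN_40 libraries, and MSTRG.41534.1 took 3.69 to 4.18% of it in MT_40 against 43.9 to 44.2% in JN_40. MSTRG.41534.3 lost its threshold without MT_4, MT_5, MT_6, JN_4, JN_5 or JN_6, at an unadjusted p (limma) of 0.0835, 0.0807, 0.0599, 0.0993, 0.0530 and 0.0798.

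The division between these transcripts was also looked up at 30 d. MSTRG.41534.1 had 2215, 2502 and 5452 FPKM in MT_30 libraries, against 304, 2572 and 2610.4 FPKM in JN_30 libraries, which overlap, and did not pass there (log2 fold change 1.30, adjusted p = 0.603, limma). The test of the change of its genotype difference between stages gave -4.64 on the log2 scale with an adjusted p of 0.639 (limma).

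**Figure D5:**
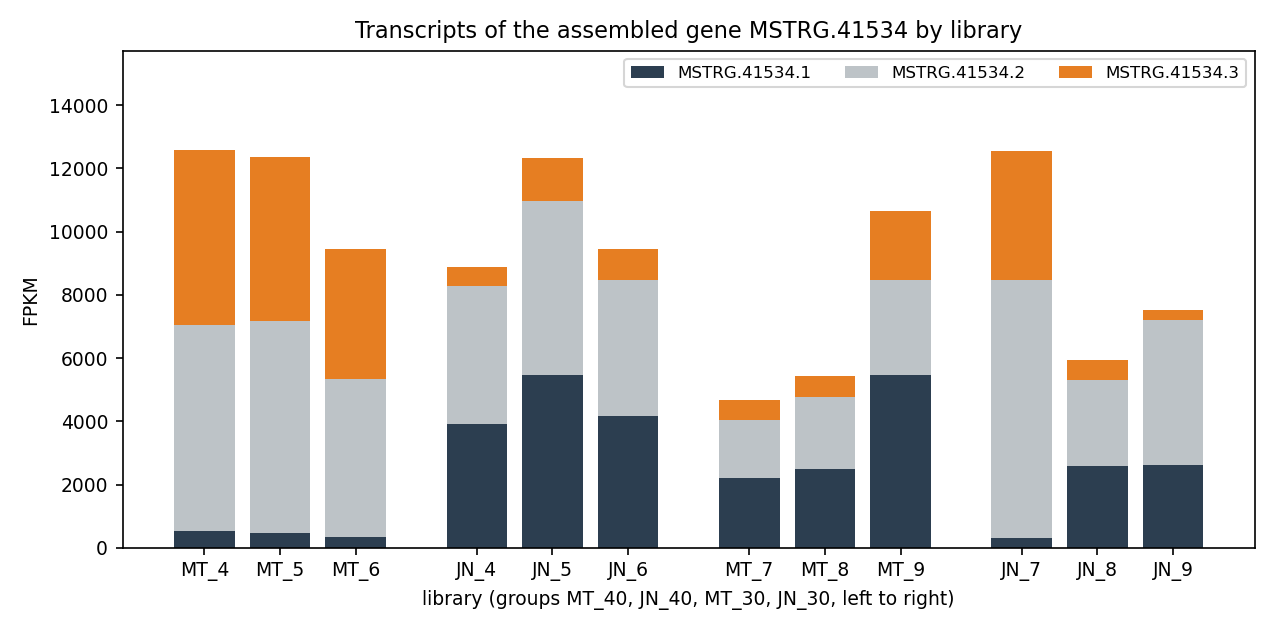
Stacked bars give the FPKM of MSTRG.41534.1, MSTRG.41534.2 and MSTRG.41534.3 in each of the 12 libraries, in the order MT_40, JN_40, MT_30 and JN_30. In MT_40 libraries MSTRG.41534.1 is the smallest piece (350 to 526 FPKM), while in JN_40 libraries it is 3902 to 5455 FPKM high, under similar sums.

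Only MSTRG.6672, antisense to the cell wall protein gene PRP3 (proline-rich protein) on chromosome 11, had at least 2 transcripts called in a single direction. MSTRG.6672.5 had 34.5, 18.4 and 53.6 FPKM in MT_40 libraries, against 0, 0 and 9.71 FPKM in JN_40 libraries (log2 fold change 6.14, SE 1.78, adjusted p = 0.372, limma). MSTRG.6672.4 had 52.0, 5.72 and 7.61 FPKM in MT_40 libraries, against 3.21, 4.68 and 2.01 FPKM in JN_40 libraries, a log2 fold change of 2.04 that was 1.06 without MT_4. Here the sum over all transcripts in the table also differed, at 154, 84.3 and 117 FPKM in MT_40 libraries against 16.1, 29.3 and 18.1 FPKM in JN_40 libraries, with no overlap.

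The position of the calls at the study's thresholds on the chromosomes was also listed. Within 10 kb of each other stood 17 pairs of called lncRNAs from different assembled genes, of which 14 pairs had the same direction, 8 higher and 6 lower (82.4%). Over all tested lncRNAs, 1359 of 2410 neighbouring pairs had the same sign of the fold change (56.4%). Only 14 of these 2410 pairs had both members called, so the shares rest on different kinds of pairs, and their difference was not tested. The examples given here were chosen after their values were seen. MSTRG.28224.1 lies 509 bases before MSTRG.28225.1 on chromosome 19, both without an assigned strand, and had 3.94, 7.66 and 7.11 FPKM in MT_40 libraries, against 0.211, 0.741 and 1.31 FPKM in JN_40 libraries, with JN_4 lowest and JN_6 highest as in its neighbour. MSTRG.50139.1 lies 4978 bases from MSTRG.50137.1 on chromosome 8, on the opposite strand, and had 0.816, 0.563 and 0.668 FPKM in MT_40 libraries, against 0.180, 0.0764 and 0.0424 FPKM in JN_40 libraries. MSTRG.610.1 overlaps MSTRG.608.1 on chromosome 1, on the opposite strand, and had 2.39, 1.35 and 2.06 FPKM in MT_40 libraries, against 0, 0.0915 and 0.494 FPKM in JN_40 libraries. Both of these pairs had higher values in every MT_40 library than in any JN_40 library. Among the lower pairs, MSTRG.4276.1 and MSTRG.4277.1 lie 661 bases apart on chromosome 10, both antisense to LOC106794863. MSTRG.4276.1 had 0.702, 0.501 and 0.584 FPKM in MT_40 libraries, against 1.37, 1.81 and 1.31 FPKM in JN_40 libraries (log2 fold change -1.19, SE 0.29, adjusted p = 0.231, limma), and MSTRG.4277.1 had a log2 fold change of -2.54. Of the 3 pairs with opposite directions, MSTRG.45038.1 overlaps MSTRG.45039.1 on chromosome 7 and had a log2 fold change of 2.55, against -2.48 for its neighbour. Among windows of 1 Mb with at least 1 call, 240 held a single call, 71 held 2, 25 held 3, 6 held 4 and the window at 48 to 49 Mb of chromosome 19 held 5, of which 4 were higher and 1 was lower.

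Presence in a single group was rare and concerned scarce transcripts. Of all 11072 transcripts, 32 were above 0 in every MT_40 library and listed at 0 in every JN_40 library, and 32 showed the reverse. Where such lncRNAs were tested, they had passed the filter through the group with signal alone. In the group with signal, 0.5 FPKM or more on average was reached by 5 lncRNAs in each direction, and 953 transcripts were listed at 0 in all 6 libraries. MSTRG.43936.1 (chromosome 6, intergenic) had 0.416, 1.24 and 1.18 FPKM in MT_40 libraries and was listed at 0 in JN_40 libraries (adjusted p = 0.0833, limma). MSTRG.39762.1 (chromosome 5, intergenic) had 0.476, 1.36 and 0.950 FPKM in MT_40 libraries and was listed at 0 in JN_40 libraries (adjusted p = 0.425, limma). The untested MSTRG.11470.3 had 3.20, 1.91 and 0.0206 FPKM and MSTRG.19247.10 had 0.0227, 1.82 and 0.143 FPKM in MT_40 libraries, with 0 in JN_40 libraries. In the other direction MSTRG.45099.2, which shares a junction with LOC106799427, was listed at 0 in MT_40 libraries, against 1.32, 0.990 and 0.773 FPKM in JN_40 libraries (adjusted p = 0.107, limma, and 0.0240 in the fit of the 6 libraries). It was not absent from MT72, where MT_30 libraries had 0.700, 1.01 and 0 FPKM, against 0.694, 0.479 and 0.940 FPKM in JN_30 libraries.

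The study names 16 lncRNAs in its text, which it chose on these samples, so their direction is no independent evidence. Of these, 13 were tested here and 2, MSTRG.50137.1 and MSTRG.40968.1, belong to the 10 higher calls above. MSTRG.33053.1 (chromosome 20, intergenic) passed the study's thresholds with 8.85, 5.21 and 3.06 FPKM in MT_40 libraries, against 0.768, 1.87 and 1.69 FPKM in JN_40 libraries (log2 fold change 1.87, SE 0.46, adjusted p = 0.244, limma). MSTRG.17612.1 (chromosome 15, intergenic) was the lower lncRNA with the highest level after MSTRG.41534.1, at 70.0, 47.7 and 109 FPKM in MT_40 libraries, against 238, 143 and 151 FPKM in JN_40 libraries. Its log2 fold change of -1.27 (SE 0.42, adjusted p = 0.510, limma) was -0.98 without MT_5 (adjusted p = 0.941), which is within the limit of 1. MSTRG.13820.1 (log2 fold change -1.61) and MSTRG.4796.5 (-1.95) passed the unadjusted thresholds as lower. MSTRG.4796.5 belongs to an assembled gene with calls in both directions, where MSTRG.4796.6 passed as higher (log2 fold change 1.88). MSTRG.4796.6 made up 90.8 to 98.3% of the summed FPKM of that gene in MT_40 libraries and 33.2 to 95.0% in JN_40 libraries. MSTRG.13820.1 lost its threshold without MT_4, MT_6, JN_4 or JN_5, at an unadjusted p (limma) of 0.0749, 0.0629, 0.0783 and 0.114. MSTRG.4796.5 lost it without MT_4, MT_5, JN_4, JN_6 or JN_9 (0.116, 0.116, 0.136, 0.192 and 0.0518), and its log2 fold change was -2.94 without JN_5 and -1.29 without JN_6. The remaining 7 tested lncRNAs did not pass, among them MSTRG.43234.1 with 36.6, 65.6 and 73.3 FPKM in MT_40 libraries and 16.7, 37.0 and 39.9 FPKM in JN_40 libraries. MSTRG.29201.1 was not tested, since it was listed at 0 in MT_40 libraries and had 6.06, 27.4 and 0 FPKM in JN_40 libraries.

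No tested lncRNA at a listed host gene of oil synthesis, lipoxygenases, seed storage or transcription factors passed either threshold at 40 d. The lists hold hosts named by a gene symbol and none named by a LOC number, so other hosts of these functions may be missing. The tested lncRNAs of the lists were 13, too few for a count of 0 to be told from the 6.12% of all tested lncRNAs that passed the study's thresholds, and nothing is read from it. The table holds 6 lncRNAs at the oil genes DGAT, FATB1B, PLDZ and WRI1, of which 3 were tested, with a median log2 fold change of 0.46 against -0.02 over all tested lncRNAs. MSTRG.51202.1, in an intron of DGAT, which encodes the enzyme of the last step of triacylglycerol synthesis, had 0.715, 1.56 and 1.31 FPKM in MT_40 libraries, against 1.15, 0.701 and 0.627 FPKM in JN_40 libraries (log2 fold change 0.46, SE 0.37, adjusted p = 0.874, limma), and the groups overlapped. MSTRG.21677.1, in an intron of FATB1B, a thioesterase that releases saturated fatty acids from the plastid synthase, had 1.40, 0.803 and 1.23 FPKM in MT_40 libraries, against 1.05, 1.44 and 1.91 FPKM in JN_40 libraries (log2 fold change -0.33, SE 0.47). MSTRG.33761.1, in an intron of the phospholipase D gene PLDZ, had 0.574, 0.597 and 0.301 FPKM in MT_40 libraries, against 0.461, 0.192 and 0.206 FPKM in JN_40 libraries (log2 fold change 0.64, SE 0.59). The lncRNAs at WRI1, a transcription factor of oil synthesis, lay below the level of testing.

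Of 2 lncRNAs at the lipoxygenase genes LOX2 and VLXC, whose enzymes oxidise linoleic and linolenic acid, 1 was tested. This was MSTRG.44447.1, antisense to VLXC, with 6.21, 4.43 and 4.06 FPKM in MT_40 libraries and 5.39, 12.8 and 5.26 FPKM in JN_40 libraries (log2 fold change -0.56, SE 0.59, adjusted p = 0.927, limma), where JN_5 alone lay apart. Of 11 lncRNAs at the seed storage and maturation genes BMY1, GY1, HPS, LEA-2, MP2, SBP65 and VSPA, 5 were tested, with a median log2 fold change of 0.05. MSTRG.31811.1, in an intron of LEA-2, a late embryogenesis abundant protein gene, had 3.02, 2.94 and 3.06 FPKM in MT_40 libraries, against 4.33, 4.42 and 2.91 FPKM in JN_40 libraries. MSTRG.16798.3, antisense to HPS, which encodes a hydrophobic seed protein, ranged more widely within the groups than between them, with 116, 61.2 and 0.776 FPKM in MT_40 libraries and 27.4, 2.04 and 67.4 FPKM in JN_40 libraries. MSTRG.16798.2 of the same assembled gene, with LOC100812425 as its named host, passed the study's thresholds as higher. It had 172, 117 and 3.49 FPKM in MT_40 libraries, against 0.264, 3.70 and 0.912 FPKM in JN_40 libraries. Its log2 fold change was 5.22 (SE 1.34, adjusted p = 0.275, limma), and the groups overlapped. MSTRG.44527.1, antisense to the vegetative storage protein gene VSPA, had 1.46, 0.0772 and 0.140 FPKM in MT_40 libraries, against 0.142, 0 and 0.0717 FPKM in JN_40 libraries (log2 fold change 1.33, adjusted p = 0.775, limma), the high mean resting on MT_4. Of 7 lncRNAs at the transcription factor genes BZIP9, MYB52, MYB73 and MYB85, 4 were tested, with a median log2 fold change of 0.42. MSTRG.22090.1, in an intron of MYB85, had 0.818, 0.948 and 0.979 FPKM in MT_40 libraries, against 0.0566, 0.662 and 0.983 FPKM in JN_40 libraries, where only JN_4 was low.

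Of the 10 most abundant lncRNAs of the 6 libraries, MSTRG.41534.1, MSTRG.41534.3 and MSTRG.28811.1 passed the study's thresholds and the others did not. MSTRG.17790.1 (chromosome 15, minus strand, intergenic) had 4833, 3965 and 2439 FPKM in MT_40 libraries, against 3197, 4204 and 4287 FPKM in JN_40 libraries (log2 fold change -0.10, SE 1.12). MSTRG.35023.2, which overlaps exons of LOC100785425 (chromosome 3), had 1545, 1739 and 1079.5 FPKM in MT_40 libraries, against 276, 734 and 711 FPKM in JN_40 libraries, and did not pass (log2 fold change 1.44, SE 0.75, adjusted p = 0.767, limma) although the groups did not overlap. MSTRG.53309.1, at the mitochondrial atp1-3, whose product is a subunit of the ATP synthase, had 333, 433 and 306 FPKM in MT_40 libraries, against 180.1, 431 and 313 FPKM in JN_40 libraries (log2 fold change 0.29, SE 0.65).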

How the data were processed

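Total RNA of pods was depleted of ribosomal RNA and sequenced as paired 150-base reads from a strand-marking kit. The authors trimmed reads with Cutadapt, mapped them (HISAT2 in the methods, TopHat2 in the submitters' processing notes, no versions) and assembled transcripts with StringTie, which made the deposited FPKM and the deposited coverage (mean reads per base, not normalized). The strand setting of the mapping and the genome build are not given in the sources used here, and antisense and host reads are told apart by strand alone. Transcripts over 200 bases without coding potential by the deposited CPC score and CNCI score were kept by the authors. Depth was computed as coverage over FPKM, and reads as coverage times length over 150.

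Expression was compared with limma 3.58.1 (R 4.3.3) after adding a pseudocount of 0.1 to FPKM and taking log2, with all 12 libraries in 4 groups, so that all share one estimate of the spread, a trended prior and Benjamini-Hochberg adjustment. The fold change of low lncRNAs is understated by the pseudocount. The study names edgeR, a count test that was not run on FPKM. The script was tested on simulated data. Counts and figures were made in Python 3.11.15 with matplotlib 3.10.9, scipy 1.17.1, pandas 2.3.3 and numpy 2.4.6.

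Named lncRNAs are all called at the adjusted p, the 10 highest and 10 lowest fold changes with groups that do not overlap and at least 1 FPKM in the higher group, the study's 16, up to 4 examples per host list, the 5 of smallest adjusted p for a difference between stages, the 10 most abundant, and up to 4 per direction listed at 0 in a group. Members and lists were chosen with earlier results of these data known. Host names were matched to RefSeq genes (4311 of 4607). Alternatives covered the pseudocount, the filter, the fit of 6 libraries, centring, voom on estimated reads, array weights, a replicate block and omission of libraries. Sequences, mRNAs, miRNAs, targets and qRT-PCR were not analysed here.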

Additional observations from a re-analysis of the deposited data

Results flagged for a closer look

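The difference between MT72 and JN18 itself differed between 40 d and 30 d for 2 lncRNAs, by the contrast of the MT_40 minus JN_40 difference with the MT_30 minus JN_30 difference in the same limma fit. Neither was called when MT_5, MT_7, MT_9, JN_6 or JN_8 was left out.

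The intergenic MSTRG.53475.1, which lies on an unplaced scaffold, had 10.5, 9.28 and 7.36 FPKM in MT_40 libraries, against 7.98, 6.45 and 5.17 FPKM in JN_40 libraries, and 1.55, 1.52 and 1.03 FPKM in MT_30 libraries, against 8.06, 9.05 and 10.3 FPKM in JN_30 libraries. The groups overlapped at 40 d (log2 fold change 0.47), and MT72 was lower at 30 d (log2 fold change -2.67). The contrast was 3.14 on the log2 scale (SE 0.39, adjusted p = 0.0181, limma). MT_30 was the group that lay apart from the other 3.

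MSTRG.43107.1, an intergenic lncRNA of 2 exons on chromosome 6 (15630221 to 15631633), had 0.0757, 0 and 0 FPKM in MT_40 libraries, against 0.170, 0.158 and 0.382 FPKM in JN_40 libraries, and 1.27, 1.03 and 0.871 FPKM in MT_30 libraries, against 0.0462, 0.0750 and 0 FPKM in JN_30 libraries. MT72 was lower at 40 d (log2 fold change -1.42) and higher at 30 d (log2 fold change 3.07), and the contrast was -4.49 (SE 0.65, adjusted p = 0.0455, limma). At 40 d it rests on 0 to 3.5 estimated reads in an MT_40 library and 7.40 to 16 in a JN_40 library.

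The next lncRNAs by this test were MSTRG.608.1, MSTRG.51486.1 and MSTRG.53721.2, each at an adjusted p of 0.0856 (limma). MSTRG.51486.1 had 1.52, 1.17 and 1.08 FPKM in MT_40 libraries, against 0.932, 0.719 and 0.856 FPKM in JN_40 libraries, and 0.291, 0.293 and 0.161 FPKM in MT_30 libraries, against 1.37, 1.37 and 1.98 FPKM in JN_30 libraries.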

How the results depend on the processing

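The 14 calls at the adjusted p became 8 with a pseudocount of 0.01, 6 with a filter of 0.5 FPKM (under which some lncRNAs could not be fitted), 9 with voom, 24 with array weights, 9 and 5 with a replicate block on 12 and on 6 libraries, 43 without JN_6 and JN_9 (an omission chosen after seeing the data), and 7 to 28 with 1 library left out. Of the 14, 9 were kept in the fit of 6 libraries. MSTRG.16468.1 and MSTRG.45584.1 were the 2 kept under all 19 alternatives followed for single lncRNAs. These 19 do not include the fits without MT_7, MT_8, MT_9, JN_7 or JN_8. The numbers past the study's thresholds (486, 280 higher and 206 lower) became 82, 71 and 11 with a pseudocount of 1, 237, 159 and 78 with the filter of 0.5 FPKM and 812, 426 and 386 without JN_6 and JN_9, with ranges of 406 to 618, 213 to 355 and 176 to 290 with 1 library left out. The higher share of them was 57.6%, 63.1% with libraries centred on the median lncRNA, 86.6% with a pseudocount of 1 and 49.9% without MT_6. The 172 higher intergenic lncRNAs became 54 with a pseudocount of 1, 108 with the filter of 0.5 FPKM and 131 to 212 with 1 library left out, and the 29 higher ones of at least 10 FPKM 15 to 34, and 36 without JN_6 and JN_9. The 10 calls at 30 d became 6 with a pseudocount of 0.01 and 8 to 10 with 1 library left out. The 2 lncRNAs that differed between stages became 1 with a pseudocount of 0.01, no filter, the filter of 0.5 FPKM or a replicate block, 4 with a pseudocount of 1, 7 with the filter over 12 libraries, 3 without JN_6 and JN_9 and 0 to 4 with 1 library left out. The count of 0 came without MT_5, MT_7, MT_9, JN_6 or JN_8, where 424, 415, 398, 556 and 651 lncRNAs had an unadjusted p under 0.05 (limma), against 519 with all libraries. The 64 lncRNAs listed at 0 in a group became 10 at a mean of at least 0.5 FPKM, and the difference of 81.3 detected lncRNAs ranged from 31.3 to 124.5. Over the lncRNAs named, none of the alternatives followed for single lncRNAs reversed the direction of a called one, while 9 of 29 uncalled ones changed sign. In these alternatives 180 of 263 values of the 14 and 1071 of 1236 of the 66 at the study's thresholds kept their call. The deviations of same-numbered libraries of the lines had an r of -0.0101, 0.0262 and -0.107, within the -0.115 to 0.114 of the other pairings. Deviations from means of 3 libraries are tied to each other, so these values do not decide whether the number marks a pair. The replicate block is kept as a setting. The cause of each change was not tested. Low read numbers limit all lncRNAs near 0.1 FPKM.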
